A study of Homo sapiens with 6 samples.

Results

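The 9 genes described here encode surface proteins that antibodies, bispecific antibodies or CAR cells are built to recognise on myeloma cells. They were chosen by that use: TNFRSF17 (BCMA), TNFRSF13B (TACI), CD38, SDC1 (CD138), SLAMF7 (CS1), LY9 (CD229), GPRC5D, FCRL5 (FcRH5) and CD47. All 9 were present among the 12760 genes of the table. They were measured by RNA-seq in MM.1S, a human line from multiple myeloma, a cancer of antibody-secreting plasma cells. LenR cells came from MM.1S kept continuously in lenalidomide, begun at 10 nM and raised 10-fold each month over 3 months. WT cells were MM.1S kept in the solvent DMSO over the same time. Each group had 3 libraries, called LenR 1 to 3 and WT 1 to 3 after their replicate numbers. All 6 carry the same labelled genotype, WT, so the labels name no engineered allele. Whether the genomes of the groups came to differ during selection was not tested. MM.1S is 1 patient-derived line. The labels call the replicates biological without saying whether resistance was raised more than once, so each p-value below reflects only how far these cultures differed. Nothing in the labels says whether drug was present at harvest, and current exposure and past selection cannot be told apart. The series title sets the comparison in a study of lysine lactylation in lenalidomide resistance.

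Plasma cells carry a surface repertoire that sets them apart from most other blood cells. BCMA and TACI receive the survival ligands APRIL and BAFF. Syndecan-1 (SDC1) carries heparan sulfate chains that can hold APRIL at the membrane, and CD38 is an ectoenzyme that consumes NAD+. SLAMF7 and LY9 belong to the SLAM receptors, which act between blood cells, FCRL5 is an Fc receptor-like protein of the B lineage, and GPRC5D is an orphan G protein-coupled receptor. CD47 binds SIRP-alpha on phagocytes and restrains uptake of the cell. Daratumumab and isatuximab bind CD38, elotuzumab binds SLAMF7, talquetamab binds GPRC5D, cevostamab binds FCRL5, and BCMA is the target of approved CAR T cell products and of teclistamab. These drugs bind protein at the cell surface, whereas the values here are RNA.

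Levels are given as FPKM, in which the fragments of a gene are divided by its length and by the size of the library. The whole reads behind the values came to between 14500140 and 17387914 per library. LenR and WT parted along the first principal component (58.1% of the variance), while the second (26.8%) set LenR 2 and WT 3 apart from the other 4 libraries (scores of -13.7 and -14 against 2.62 to 12.7). WT 1 and WT 2 were the closest pair: the mean chi-square of their reads per gene was 1.84, against an expected 1 for sampling noise alone and 9.32 to 23.6 for the other pairs within a group. They were kept as separate samples, but the labels do not settle whether they are independent cultures. If they are not, WT holds fewer than 3 independent samples, and the p-values below may be too small. With WT 1 and WT 2 averaged, 1052 genes were called, against 1707 with all 6 libraries kept apart. All 13 plasma cell markers looked for were present, with JCHAIN at 2602 ± 424 FPKM in LenR and 2233 ± 314 FPKM in WT (SD, n = 3 each). Among markers of other cells, 2 of 8 T and NK cell genes, 1 of 8 myeloid, 2 of 8 epithelial and stromal, 1 of 5 erythroid and 1 of 6 mature B cell genes had a row in the table. The summed level of the T and NK cell genes was 3.07 to 3.87 FPKM in LenR and 3.71 to 4.11 FPKM in WT, and that of the myeloid list, from CD68 alone, was 17.3 to 19.3 FPKM in LenR and 12.9 to 16.6 FPKM in WT. The mature B cell list, from CR2 alone, was at 12.6 to 14.6 FPKM in LenR and 10.2 to 12.1 FPKM in WT, the erythroid list, from HBB alone, at 5.55 to 8.31 FPKM in LenR and 5.83 to 7.11 FPKM in WT, and the epithelial and stromal genes summed to 0.60 to 0.849 FPKM in LenR and 0.465 to 0.637 FPKM in WT. The part of CD68 and CR2 in the results below was not tested. In bulk RNA, fewer cells with a transcript and less of it per cell cannot be told apart.

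CD38 and SDC1 were higher in LenR, and none of the surface targets was called lower. Of the 8 targets with a mean of at least 1 FPKM, 2 rose past an adjusted p of 0.05 (limma on log2(FPKM + 1), Benjamini-Hochberg over 11276 genes), against 8.57% of all genes tested that were called higher. None fell, against 6.57% of all genes. At an unadjusted p under 0.05 there were 4 of the 8, CD38, SDC1, LY9 and GPRC5D, where 28.7% of all genes tested were under it. The median log2 fold change of the 8 was 0.16, beside 0.00 over all genes tested. LenR and WT values did not overlap for 5 of the 8, where 34.5% of all genes tested did not overlap. In 4 of these LenR was the higher group, against 18.0% of all genes tested, and in 1 the lower, against 16.5%. FCRL5, the remaining target, had a mean under 1 FPKM and is described by its reads.

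**Figure D1:**
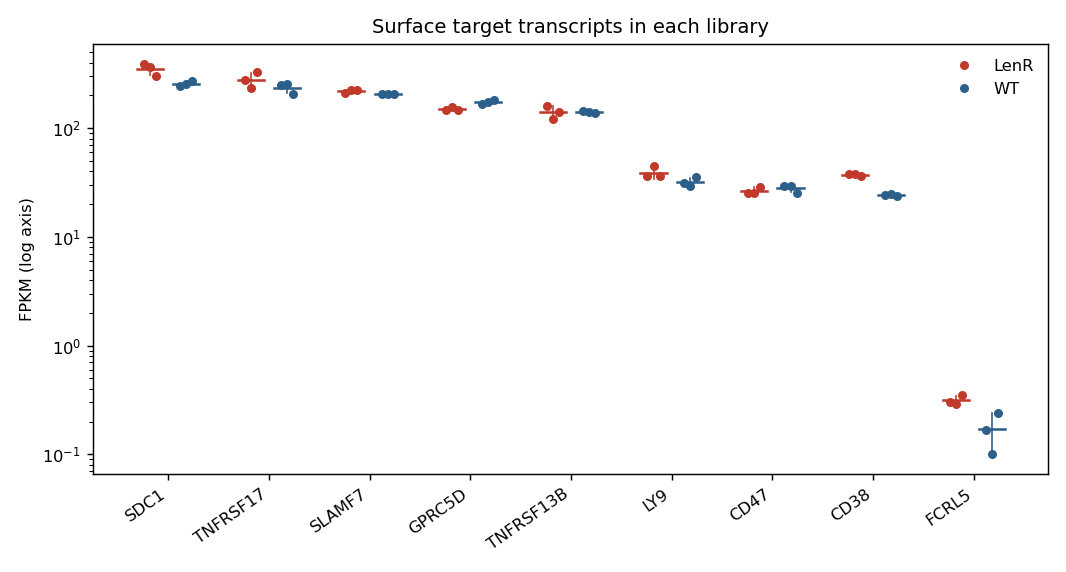
FPKM (log axis) of the 9 surface targets, ordered by their mean in WT. Each point is a library, the short line is the mean of 3 libraries and the vertical line is 1 SD, with LenR in red to the left of WT in blue. SDC1, TNFRSF17, SLAMF7, GPRC5D and TNFRSF13B lay above 100 FPKM in every library, LY9, CD47 and CD38 between 23.5 and 44.4 FPKM, and FCRL5 below 0.36 FPKM.

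CD38, the NAD+-consuming ectoenzyme, had, of the 8 targets tested, the change that was largest against its standard error. It measured 37.5, 38.0 and 36.4 FPKM in LenR 1 to 3, against 24.5, 24.8 and 23.5 FPKM in WT 1 to 3. Every LenR library lay above every WT library, with a coefficient of variation of 2.22% in LenR and 2.77% in WT. The ratio of the group means was 1.54, and the log2 fold change was 0.60 (SE 0.061, 95% interval 0.46 to 0.74, limma adjusted p = 0.000585). It rested on 815, 898 and 949 reads in LenR and 641, 614 and 513 reads in WT. Between the pair of libraries that stand apart, LenR 2 and WT 3, the log2 difference was 0.67, and in the other 4 libraries it was 0.56. CD38 passed under all 20 other settings (log2 fold changes of 0.56 to 0.62, adjusted p 0.000105 to 0.0131), those without a library included. By level it ranked 2252 of 12760 genes in LenR and 3350 in WT.

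CD38 lies on chromosome 4 (15778275 to 15853230, plus strand, GRCh38). Among 14 other tested genes within 5 Mb, 1 was called higher and none lower, with a median log2 fold change of 0.07. The promoter of CD38 is shown because it is the target with the firmest change. It spans chr4:15778078-15778377 on the plus strand (RefSeq, GRCh38.p14), from 250 bases before the gene start to 50 after it. The capitals mark a match to the ETS-IRF composite motif (GGAA, any 2 bases, then GAAA), the element at which IRF4 and its ETS partners are known to bind in B lineage cells.

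CD38: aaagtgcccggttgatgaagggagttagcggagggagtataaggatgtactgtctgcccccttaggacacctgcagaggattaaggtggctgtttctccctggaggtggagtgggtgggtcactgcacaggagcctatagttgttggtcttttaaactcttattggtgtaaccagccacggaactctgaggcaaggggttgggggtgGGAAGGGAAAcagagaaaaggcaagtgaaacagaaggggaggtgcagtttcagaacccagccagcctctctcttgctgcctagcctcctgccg

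This match lies at bases -43 to -34 from the RefSeq gene start, on the gene's own strand, and overlapped no other match. Relative to the GENCODE start it lies downstream, inside the gene. The motif occurs on either strand in 2.82% of 35116 promoters of this length. The same window held none of the other motifs searched on both strands, which were the GC box GGGCGG (45.0% of promoters), the E-box CACGTG (7.26%), the TATA box TATAAA (11.5%), the interferon response motif of GAAA, any 2 bases and GAAA (3.57%) and the AP-1 motif TGANTCA (7.71%). Its G and C content was 54%, with 4 CG pairs, beside a median content of 58.7% over all these promoters. Of the 9 targets, 5 had a promoter in the RefSeq table, and of these CD38 alone matched the composite motif. A match of letters describes the window and shows no binding.

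SDC1, the heparan sulfate proteoglycan syndecan-1 and the standard surface marker of plasma cells, had the highest mean of the targets in both groups, although TNFRSF17 exceeded it in LenR 3, WT 1 and WT 2. It measured 385, 362 and 302 FPKM in LenR 1 to 3, against 242, 253 and 270 FPKM in WT 1 to 3. The groups did not overlap, although LenR 3 lay closer to WT 3 than to LenR 1. The ratio of the means was 1.37 and the log2 fold change 0.45 (SE 0.11, 95% interval 0.19 to 0.70, limma adjusted p = 0.0302). SDC1 had 17824 to 19326 reads in LenR libraries and 13325 to 14307 in WT libraries. The call ended without WT 1 (adjusted p = 0.132), WT 2 (0.109), LenR 1 (0.107) or LenR 2 (0.0595), and with WT 1 and WT 2 averaged (0.119) or quantile normalization (0.0717). Within LenR 2 and WT 3 the log2 difference was 0.42, and in the other 4 libraries 0.46. SDC1 lies on chromosome 2 (20200797 to 20225433, minus strand), where 1 of 24 tested neighbours within 5 Mb was called higher and none lower.

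**Figure D2:**
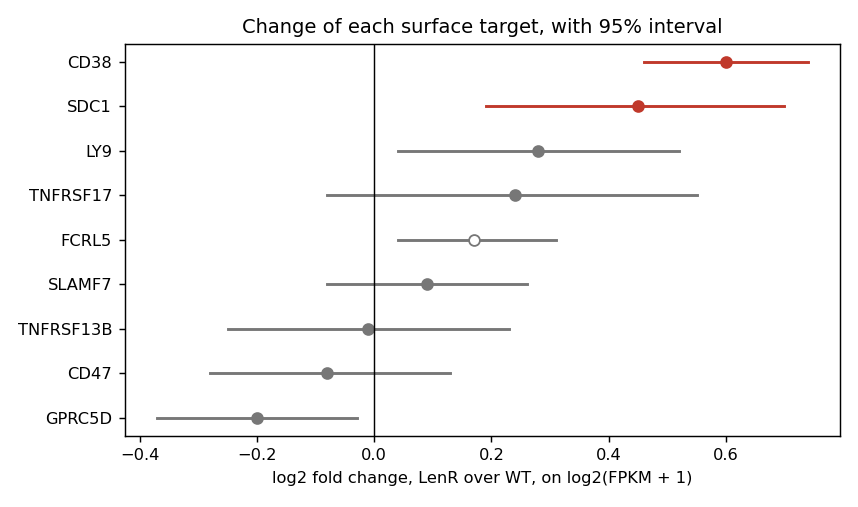
Log2 fold change of each surface target, LenR over WT, on the log2(FPKM + 1) scale, with its unadjusted 95% interval from limma. Red marks the genes past an adjusted p of 0.05, grey those not past it, and the open circle FCRL5, fitted without the level filter. CD38 (0.60) and SDC1 (0.45) stand at the top and GPRC5D (-0.20) at the bottom.

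The BCMA and TACI receptors did not pass. TNFRSF17 (BCMA), the receptor that most current myeloma CAR T cells recognise, measured 276, 236 and 326 FPKM in LenR 1 to 3 and 247, 254 and 207 FPKM in WT 1 to 3. The groups overlapped, since LenR 2 lay below 2 of the 3 WT libraries. Its log2 fold change was 0.24 (95% interval -0.08 to 0.55, limma adjusted p = 0.304), and its coefficient of variation in LenR, 16.2%, was the highest of the 9 targets there. The lowest library of each group was 1 of the pair that stands apart, LenR 2 or WT 3. With a term for this pair, TNFRSF17 passed (0.24, adjusted p = 0.0332). That term follows a split seen in these same libraries, so passing under it is no independent support. Under it 3163 of the 11276 genes tested were called, against 1707 without it. The adjusted p of TNFRSF17 ranged from 0.0332 to 0.568 over 20 other settings.

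TNFRSF13B (TACI), the sister receptor for the same ligands, averaged 141 ± 18.3 FPKM in LenR and 141 ± 4.13 FPKM in WT (SD, n = 3 each). LenR held both its highest library, 159 FPKM in LenR 1, and its lowest, 122 FPKM in LenR 2. The log2 fold change was -0.01 (95% interval -0.25 to 0.23, adjusted p = 0.979), and its sign turned with quantile normalization (0.02), without LenR 2 (0.09) and without WT 1 (0.01). These 2 receptors rest on 2630 to 5669 reads per library. In GENCODE 29 TNFRSF17 (chromosome 16, 11965107 to 11968068) is overlapped on the other strand by NPIPB2, and TNFRSF13B (chromosome 17, 16929816 to 16972118) on its own strand by the pseudogene TBC1D27P. The strand setting of the counting is not given in the sources used here, so shared reads cannot be told apart.

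Around these receptors, the ligand gene TNFSF13 changed. TNFSF13, which encodes APRIL, averaged 5.58 ± 1.35 FPKM in LenR and 3.38 ± 0.609 FPKM in WT and rose (log2 fold change 0.58, SE 0.16, adjusted p = 0.046). Its call ended without WT 1 (adjusted p = 0.148), WT 2 (0.128), LenR 2 (0.0784) or LenR 3 (0.0839). It was the sole call among 6 tested genes, where 15.1% of all genes tested were called. The other 5 were subunits of gamma-secretase, the protease that sheds BCMA from the membrane (median log2 fold change of the 6 genes 0.09). The BAFF gene TNFSF13B averaged under 1 FPKM and was not tested. Among 9 signalling adaptors of BCMA and TACI, none rose and BIRC3, a ubiquitin ligase of the NF-kB pathway, fell to 11.3 ± 1.1 FPKM in LenR, against 15.8 ± 1.39 FPKM in WT (-0.45, adjusted p = 0.0144; median of the 9 genes 0.07). The call of BIRC3 ended without WT 1 (adjusted p = 0.0653), WT 2 (0.0617) or LenR 1 (0.0616).

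The SLAM receptors SLAMF7 and LY9 lay higher in every LenR library than in any WT library without passing. SLAMF7 measured 209, 225 and 224 FPKM in LenR 1 to 3 and 205, 207 and 208 FPKM in WT 1 to 3. The gap between the groups was narrow, and the WT libraries differed by a coefficient of variation of only 0.757%. Its log2 fold change was 0.09 (95% interval -0.08 to 0.26, adjusted p = 0.498), and this interval did not reach the 0.60 measured for CD38. LY9 measured 36.5, 44.4 and 36.2 FPKM in LenR 1 to 3 and 31.2, 29.6 and 35.2 FPKM in WT 1 to 3. In LY9 the highest library of each group was LenR 2 or WT 3, the pair that stands apart. Its log2 fold change was 0.28 (95% interval 0.04 to 0.52, unadjusted p = 0.0293, adjusted p = 0.123). LY9 passed with a term for that pair (0.28, adjusted p = 0.0047) and without both of its libraries (0.25, adjusted p = 0.0491). Both settings follow a split seen in these same libraries, and 3163 genes were called under the term. LY9 passed in none of the 6 fits that left out 1 library (adjusted p up to 0.35).

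Both genes lie in the SLAM cluster of chromosome 1, 378 kb long from SLAMF6 to CD244, of which 5 genes had a row in the table. Along the chromosome their log2 fold changes were 0.74 for SLAMF6 (160485030 to 160523262), -0.01 for CD48, 0.09 for SLAMF7 (160739057 to 160754821), 0.28 for LY9 (160796074 to 160828261) and 0.26 for CD244. SLAMF6, a receptor of lymphocytes that binds its own kind, alone passed. It measured 6.88, 7.75 and 7.25 FPKM in LenR 1 to 3 and 3.67, 3.93 and 4.29 FPKM in WT 1 to 3 (adjusted p = 0.000556), and its 95% interval (0.57 to 0.91) did not meet that of SLAMF7 (-0.08 to 0.26). The difference between these genes was not tested. Of 79 tested neighbours within 5 Mb of SLAMF6, 4 were called higher and 2 lower.

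Apart from SLAMF7 and LY9, which did not pass, 7 of 13 listed SLAM family genes and signalling proteins behind them had a row. Of these 7, 3 rose and 2 fell, with a median log2 fold change of 0.26. Over all genes tested, 8.57% were called higher and 6.57% lower. Besides SLAMF6, the phosphatases PTPN11 (SHP-2), at 28.4 ± 0.899 FPKM in LenR and 17.3 ± 0.887 FPKM in WT (0.69), and PTPN6 (SHP-1), at 138 ± 9.43 FPKM in LenR and 106 ± 7.31 FPKM in WT (0.38), rose. INPP5D (SHIP-1), a lipid phosphatase, fell (-0.52), as did the kinase FYN (-0.26). PTPN11 and INPP5D lay among genes called in the same direction, and the part of this in their changes was not tested. Of 68 tested neighbours of PTPN11 on chromosome 12, 60 were called higher (median 0.57), and of 30 neighbours of INPP5D on chromosome 2, 22 were called lower (median -0.40). The call of PTPN6 ended without WT 1 (adjusted p = 0.11), WT 2 (0.106) or LenR 1 (0.0776), and that of INPP5D without WT 2 (0.0536), LenR 1 (0.0902) or LenR 3 (0.0526). The call of FYN ended in each fit without 1 library except that without LenR 2 (adjusted p 0.0506 to 0.11).

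GPRC5D, the orphan receptor bound by talquetamab, was the one target with lower values in every LenR library. It measured 148, 156 and 148 FPKM in LenR 1 to 3 and 166, 172 and 180 FPKM in WT 1 to 3. The groups did not overlap, and the ratio of the means was 0.872. The log2 fold change was -0.20 (SE 0.073, 95% interval -0.37 to -0.03, unadjusted p = 0.0289), and it did not pass after adjustment (adjusted p = 0.122). It passed with the term for the pair of libraries that stands apart (-0.20, adjusted p = 0.0135) and under none of the other 19 settings. That term was drawn from these same libraries, and under it 3163 genes were called. GPRC5D lies on chromosome 12 (12940775 to 12952147, minus strand) with the antisense gene GPRC5D-AS1 overlapping it. Of its 31 tested neighbours within 5 Mb, 7 were called higher and 1 lower, a median of 0.08.

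CD47, the phagocytosis checkpoint, measured 25.5, 25.5 and 28.8 FPKM in LenR 1 to 3 and 29.5, 29.5 and 25.3 FPKM in WT 1 to 3. The groups overlapped: WT 3 was the lowest of the 6 libraries. The log2 fold change was -0.08 (95% interval -0.28 to 0.13, adjusted p = 0.635), and no setting gave a call (adjusted p 0.287 to 0.89). CD47 lies on chromosome 3 (108043094 to 108091862). Of 5 tested genes of CD47 partners and phagocytosis signals, 2 rose and none fell (median 0.07). Over all genes tested, 8.57% rose and 6.57% fell. SIRPA, the receptor of CD47, averaged 26.7 ± 4.39 FPKM in LenR and 17 ± 2.6 FPKM in WT (0.62, adjusted p = 0.0219). QPCTL, the Golgi glutaminyl cyclase that modifies CD47 so that SIRP-alpha can bind it, averaged 22.5 ± 1.56 FPKM in LenR and 16.1 ± 1.14 FPKM in WT (0.46, adjusted p = 0.00671). The call of SIRPA ended without WT 1 (adjusted p = 0.0767), WT 2 (0.077) or LenR 1 (0.0835), while that of QPCTL held in each of the 6 fits without 1 library (adjusted p up to 0.0392).

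FCRL5, the Fc receptor-like target of cevostamab, was close to the lower end of the table. It had 24, 25 and 33 reads in LenR 1 to 3, against 16, 9 and 19 reads in WT 1 to 3. The exact Poisson 95% intervals of the LenR libraries, which cover counting error only, reached from 15.4 to 46.3 reads and those of the WT libraries from 4.12 to 29.7 reads. They overlapped for most pairs of libraries, but the interval of LenR 3 (22.7 to 46.3) lay above that of WT 2 (4.12 to 17.1). In FPKM it measured 0.306, 0.293 and 0.35 in LenR and 0.169, 0.101 and 0.241 in WT. Every LenR value lay above every WT value, and the ratio of the means was 1.86. In a fit without the level filter the log2(FPKM + 1) fold change was 0.17 (SE 0.058, 95% interval 0.04 to 0.31, unadjusted p = 0.0192, adjusted p = 0.089), a scale that understates changes of so low a gene. It was 0.65 with a pseudocount of 0.1 (adjusted p = 0.0767) and 0.97 with voom on the reads (adjusted p = 0.0538). FCRL5 did not pass under any setting after adjustment. Of the Fc receptor-like family besides FCRL5, 3 of 7 genes had a row and 2 were tested. FCRLA, an intracellular member, rose to 11.8 ± 0.549 FPKM in LenR, against 9.67 ± 0.269 FPKM in WT (0.26, adjusted p = 0.0311), a call that ended in each fit without 1 library except that without LenR 3 (adjusted p 0.0524 to 0.146). FCRL5 lies on chromosome 1 (157513377 to 157552520, minus strand).

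Since FPKM is per length, the targets can be ordered by level within a group. In LenR the order was SDC1 (350 FPKM), TNFRSF17 (279), SLAMF7 (219), GPRC5D (151), TNFRSF13B (141), LY9 (39), CD38 (37.3), CD47 (26.6) and FCRL5 (0.316). In WT it was SDC1 (255 FPKM), TNFRSF17 (236), SLAMF7 (206), GPRC5D (173), TNFRSF13B (141), LY9 (32), CD47 (28.1), CD38 (24.3) and FCRL5 (0.17). The sequence was the same apart from CD38, which stood above CD47 in LenR and below it in WT. In LenR the neighbours SDC1 and TNFRSF17, GPRC5D and TNFRSF13B, and LY9 and CD38 overlapped in their library values. In WT the overlapping neighbours were SDC1 and TNFRSF17, and TNFRSF17 and SLAMF7. The 5 most abundant targets ranked 415 or higher of the 12760 genes in both groups, and CD38 exceeded 82.4% in LenR and 73.7% in WT. Summed over the 9 genes the level was 1209 to 1278 FPKM in LenR libraries and 1086 to 1111 FPKM in WT libraries. The largest differences of group means were those of SDC1 and of TNFRSF17, which did not pass. The means of GPRC5D and CD47 were lower in LenR, so the sum does not describe each target. The gene lengths behind these values ranged from 994 bases for TNFRSF17 to 5390 for FCRL5, and 1491 bases were used for CD38, so the order holds for the gene models the authors counted on.

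**Figure D3:**
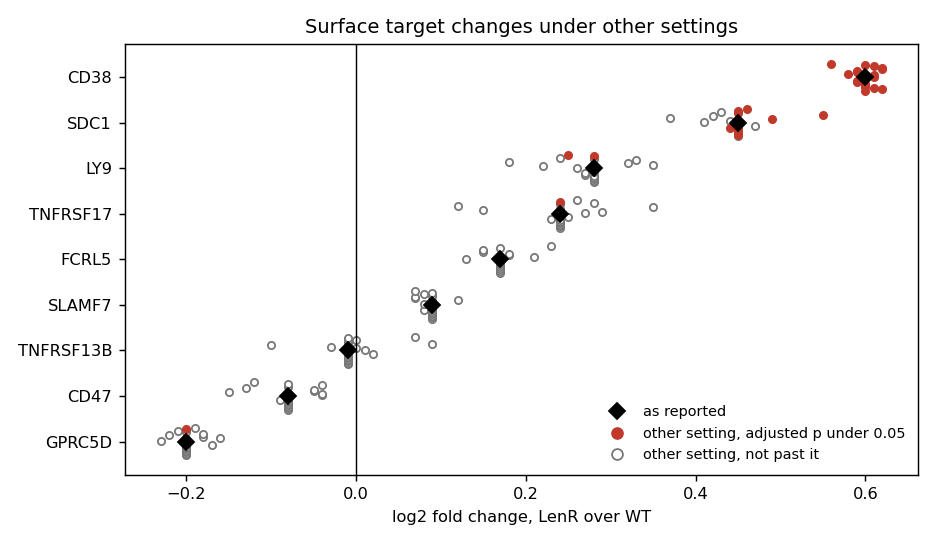
Log2 fold change of each surface target, LenR over WT, as reported (black diamond) and under the other settings (circles, red where the adjusted p was under 0.05). For FCRL5 the settings that change the pseudocount or use reads are left out, since they change its scale. All CD38 circles are red, those of SDC1 are mixed, and those of SLAMF7, TNFRSF13B, CD47 and FCRL5 are open.

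The genes whose pattern over the 6 libraries was closest to a called target were found by the mean absolute difference of gene-centred log2(FPKM + 1) values. For CD38 these were ZYG11A (difference 0.0122) and TBC1D4 (0.023), and for SDC1 they were YPEL3 (0.0199) and PUS1 (0.0329). ZYG11A measured 3.14, 3.15 and 2.95 FPKM in LenR 1 to 3 and 1.65, 1.69 and 1.59 FPKM in WT 1 to 3. YPEL3, like SDC1, was lowest in LenR 3 among the LenR libraries, at 38.8 FPKM against 48.4 and 46.8 FPKM, with 32.2 to 34.7 FPKM in WT. PUS1, an enzyme that modifies tRNA, lies on chromosome 12 with 9 of its 20 tested neighbours called higher (median 0.31). The call of YPEL3 ended without WT 1 (adjusted p = 0.0914), WT 2 (0.0882), LenR 1 (0.0864) or LenR 2 (0.0533).

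Genes of NAD+ and adenosine handling, in which CD38 acts as the surface NAD+ consumer, moved in both directions. Of 10 tested besides CD38, 3 rose and 1 fell (median log2 fold change 0.07), where 8.57% of all genes tested rose and 6.57% fell. NT5E (CD73), the surface enzyme that releases adenosine from AMP, averaged 5.77 ± 0.704 FPKM in LenR and 3.98 ± 0.258 FPKM in WT (0.44, adjusted p = 0.0156). ADA, adenosine deaminase, fell to 125, 121 and 118 FPKM in LenR 1 to 3, against 169, 164 and 163 FPKM in WT 1 to 3 (-0.44, adjusted p = 0.00403). NMNAT3, an NAD+ synthesis enzyme, rose (0.47, adjusted p = 0.00709), and so did the nucleoside transporter SLC29A1 (0.32, adjusted p = 0.0321). The calls of NT5E, ADA and NMNAT3 held in all 6 fits without 1 library, but NT5E did not pass without both LenR 2 and WT 3 (0.34, adjusted p = 0.0658). The call of SLC29A1 ended without WT 1 (adjusted p = 0.153), WT 2 (0.146), LenR 1 (0.101) or LenR 2 (0.0709).

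While SDC1 rose, 2 other syndecans fell and SDC4 did not pass (2.99 ± 0.202 FPKM in LenR and 2.84 ± 0.147 FPKM in WT, log2 fold change 0.05). SDC2 averaged 1.23 ± 0.232 FPKM in LenR and 4.47 ± 0.606 FPKM in WT (log2 fold change -1.29, SE 0.11, adjusted p = 0.000277), from 55 to 89 reads in LenR libraries and 195 to 291 in WT libraries. SDC3 averaged 0.804 ± 0.0512 FPKM in LenR and 1.42 ± 0.152 FPKM in WT (-0.42, adjusted p = 0.00801), a log2 fold change of -0.81 with voom on the reads. With 0.804 FPKM in LenR, SDC3 entered the test through its 1.42 FPKM in WT. SDC2 and SDC3 both stayed called in all 6 fits without 1 library, at levels far below that of SDC1. Of all genes tested, 8.57% rose and 6.57% fell. Besides SDC1, which is not counted here, 22 genes of syndecans and of heparan sulfate synthesis or trimming were tested. Of these 22, none rose and 4 fell (median 0.00). The other two were XYLT1, which starts the sugar chain (-0.38, adjusted p = 0.0133), and NDST1, which sulfates it (-0.43, adjusted p = 0.0351). NDST1 lies on chromosome 5, where 25 of its 36 tested neighbours within 5 Mb were called lower (median -0.64). The part of this region in the change of NDST1 was not tested. The call of XYLT1 ended without WT 1 (adjusted p = 0.0505) or LenR 1 (0.0608), and that of NDST1 in each fit without 1 library except that without LenR 2 (adjusted p 0.0563 to 0.118). None of the 3 complement inhibitor genes CD46, CD55 and CD59, which protect cells from antibody-directed complement, passed at an adjusted or an unadjusted p under 0.05 (limma; median 0.04).

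**Figure D4:**
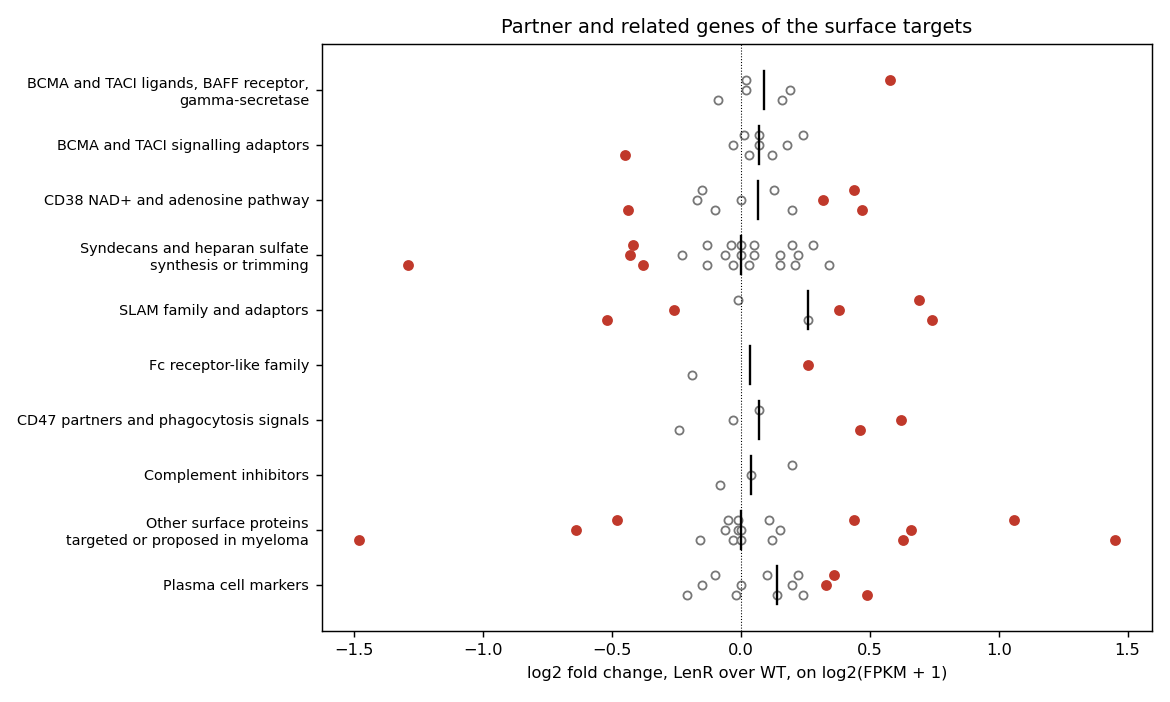
Log2 fold changes, LenR over WT, of the tested partner and related genes in 10 lists. Each circle is a gene, filled red where it passed an adjusted p of 0.05, and the black line is the median of its list. The medians lie between 0.00 and 0.26, and the widest spread is that of other surface proteins, from CD33 (-1.48) to ICAM1 (1.45).

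Other surface proteins targeted or proposed as targets in myeloma included log2 fold changes beyond the range of the 9 targets (-0.20 to 0.60). Of 19 tested, 5 rose and 3 fell (median 0.00), where 8.57% of all genes tested rose and 6.57% fell. ICAM1, an adhesion molecule, averaged 8.79 ± 1.01 FPKM in LenR and 2.62 ± 0.656 FPKM in WT (log2 fold change 1.45, adjusted p = 0.000386). CD40, a receptor for T cell help, measured 9.05, 9.43 and 8.95 FPKM in LenR 1 to 3 and 4.52, 3.6 and 3.52 FPKM in WT 1 to 3 (1.06, adjusted p = 0.000256). CD70, the ligand of CD27, averaged 25.5 ± 3.09 FPKM in LenR and 15.7 ± 0.779 FPKM in WT (0.66), and LAMP5 397 ± 16.3 FPKM in LenR and 255 ± 16.5 FPKM in WT (0.63). Each of these 4 genes stayed called without any 1 library. Their groups did not overlap, with LenR higher, as was so for 18% of all genes tested. These 4 were named for their called rises, so this adds no support. The fifth gene that rose, CD276 (0.44, adjusted p = 0.0355), is named after its value was seen, and its call ended without WT 1 (adjusted p = 0.13), WT 2 (0.123), LenR 1 (0.134) or LenR 2 (0.0815).

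The 3 surface genes that fell were CD33, CD74 and CD79B. CD33, a receptor of myeloid cells, had 3, 4 and 0 reads in LenR 1 to 3 and 51, 57 and 52 reads in WT 1 to 3 (log2 fold change -1.48, adjusted p = 8.79e-05). With 0.0949 FPKM in LenR, CD33 entered the test through its 2.05 FPKM in WT, and the log2(FPKM + 1) scale understates its change, which was -4.73 with voom on the reads. CD74, the MHC class II invariant chain and an antibody target, measured 366, 403 and 345 FPKM in LenR 1 to 3, against 561, 548 and 631 FPKM in WT 1 to 3 (-0.64, adjusted p = 0.00401). CD74 lies on chromosome 5, and 25 of its 36 tested neighbours within 5 Mb were called lower (median -0.62). This is the same region as that of NDST1, so their falls are not separate observations of it. The part of the region in the change of CD74 was not tested. CD79B, a B cell receptor component, fell to 14.4 ± 1.86 FPKM in LenR, against 20.4 ± 1.66 FPKM in WT (-0.48), a call that ended without WT 1 (adjusted p = 0.079), WT 2 (0.0599) or LenR 1 (0.0522). A pair of genes under the level filter is named after their values were seen. CD200, an immune checkpoint ligand, had 50, 48 and 61 reads in LenR and 3, 4 and 4 in WT (1.15, adjusted p = 4.16e-05 without the filter), and LILRB4, an inhibitory receptor, had 88, 135 and 218 reads in LenR and 335, 384 and 286 in WT (-0.49, adjusted p = 0.00765 without the filter). With voom on the reads these log2 fold changes were 3.72 for CD200 and -1.23 for LILRB4.

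Among the 13 plasma cell markers, which leave out the surface targets, 3 rose and none fell (median log2 fold change 0.14). Those that rose were the transcription factors PRDM1, XBP1 and IRF4. Over all genes tested, 8.57% rose and 6.57% fell. Other regulators of transcription in the list did not pass, with log2 fold changes of 0.20 for IKZF1, -0.15 for IKZF3 and -0.10 for POU2AF1. PRDM1 averaged 124 ± 12.9 FPKM in LenR and 88.3 ± 7.81 FPKM in WT (0.49), XBP1 619 ± 15.1 FPKM in LenR and 483 ± 5.52 FPKM in WT (0.36), and IRF4 211, 233 and 220 FPKM in LenR 1 to 3 and 177, 172 and 178 FPKM in WT 1 to 3 (0.33, adjusted p = 0.0217). Secretory genes of the list such as MZB1 (0.10) and SEC11C (-0.02) did not pass. The calls of PRDM1 and IRF4 ended without WT 1 (adjusted p = 0.077 and 0.106) or WT 2 (0.0725 and 0.118), and that of XBP1 without WT 1 (0.121), WT 2 (0.101), WT 3 (0.0513) or LenR 1 (0.0671). With quantile normalization XBP1 and IRF4 did not pass.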

How the data were processed

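Total RNA of 3 LenR and 3 WT cultures of MM.1S was sequenced with a universal RNA-seq library kit, per the labels' protocols. The authors deposited 1 table of FPKM values for 12760 expressed genes. Per the submitters' processing notes, the build was hg38 and the tools included edgeR 3.40.2, featureCounts 2.0.3, HISAT2 2.2.1 and FastQC 0.11.9. The sources used here give no annotation, expression filter or strand setting. Within a gene the values are whole multiples of a step, which gave whole reads and the gene length for all 12760 genes (within 0.03 of a read, 114 of them after a common factor).

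The 11276 genes averaging 1 FPKM or more (1484 were left out) were tested on log2(FPKM + 1) with limma 3.58.1 (R 4.3.3; group as the sole term, empirical Bayes with a trend, two-sided, Benjamini-Hochberg over all genes tested, threshold 0.05). Intervals are limma's, unadjusted, and SDs are over 3 libraries. The fit was tested on simulated data first. Symbols were matched through current or older names (GPR56 as ADGRG1, TENT5C as FAM46C). Positions came from GENCODE 29 and promoters from RefSeq. Named genes were the 9 targets, up to 4 called genes in each direction of 10 related lists, the 2 genes closest in pattern to each called target, and IRF4, PRDM1 and XBP1. JCHAIN, MZB1, SEC11C, IKZF1, IKZF3, POU2AF1, SDC4, TNFSF13B, CD276, CD200, LILRB4, CD48, CD244 and the complement inhibitors stand outside this rule and were picked with their values in view. The targets and lists were chosen with earlier results of these data known. The 20 other settings covered scaling, filter, pseudocount, moderation, reads, a replicate block, close or distant libraries, and each library left out.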

Additional observations from a re-analysis of the deposited data

How the results depend on the processing

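The number of genes called was 1707 (966 higher and 741 lower in LenR). With the replicate number as a block it was 907 (496 and 411), with a minimum mean of 5 FPKM 1075 (601 and 474), with WT 1 and WT 2 averaged 1052 (576 and 476), with WT 3 and LenR 2 both left out 1824 (1030 and 794), and with these 2 libraries kept but given their own term 3163 (1729 and 1434). Without 1 library it ranged from 1006 to 1562, with 545 to 919 higher and 461 to 681 lower. Fewer genes are tested under the higher minimum. Fewer samples enter the averaged fit and the fits that leave libraries out, yet the fit without WT 3 and LenR 2 called more genes (1824). The replicate block and the term for these 2 libraries add terms to the fit. What part each of these had in the counts was not tested.

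CD38 kept its call under all 20 settings. The log2 fold change of SDC1 missed the threshold with the replicate block (0.45, adjusted p = 0.14), quantile normalization (0.47) and averaged WT replicates (0.43), and ranged from 0.37 to 0.55 without 1 library, with 4 of these 6 fits ending its call. Once WT 3 and LenR 2 had their own term, TNFRSF17 (0.24), LY9 (0.28) and GPRC5D (-0.20) passed. That term follows a split seen in these same data. LY9 also passed without both libraries (0.25), and without 1 library LY9 ranged from 0.18 to 0.35. TNFRSF13B, at -0.01, turned sign with quantile normalization (0.02), averaged WT replicates (0.00) and both libraries left out (0.07), and ranged from -0.10 to 0.09 without 1 library. CD48, also at -0.01, turned with the same settings (0.02, 0.01 and 0.01) and ranged from -0.07 to 0.06. Of 35 other named genes that were called, 16 kept the call under every setting run. With the block 17 lost it, among them NT5E (adjusted p = 0.0554), ADA (0.0676) and QPCTL. With averaged WT replicates 14 lost it, among them TNFSF13, BIRC3, PTPN6, SIRPA, PRDM1, XBP1 and IRF4. No other target changed its side of the threshold or its direction.

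Libraries with the same replicate number did not deviate alike from their group means (correlations of 0.024, -0.557 and -0.683). LenR 2 correlated best with WT 3 (0.686). The deviations of the 3 libraries in a group cancel out, so these correlations depend on one another. They do not settle whether the cultures were paired. The depth of 9 to 33 reads per library limits FCRL5.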
